A study of Mus musculus with 10 samples.

Results

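The genes examined here encode the insulin granule exocytosis machinery, the proteins that dock, prime and fuse insulin granules with the plasma membrane of the β cell. The 9 members, Stx1a, Snap25, Vamp2, Unc13a, Rims2, Rab3a, Rab27a, Syt7 and Syt13, were taken by symbol from the deposited table. All 9 were present among its 17945 named genes, and all 9 passed the filter on low values that left 11711 genes for testing. They were measured by RNA sequencing of pancreatic islets from C57BL/6 mice aged 18 weeks. The 5 knockout libraries came, per the labels, from mice carrying Pdx1-CreER, a tamoxifen-inducible Cre driven by the promoter of the islet transcription factor gene Pdx1, together with Grk5 flox/flox alleles. The 5 control libraries came from mice with the Grk5 flox/flox alleles and no Cre. Whether the controls received the inducer, whether islets were pooled, and the sex of the animals are not given in the sources used here. Grk5 encodes a kinase that phosphorylates G protein-coupled receptors. In its title the series calls it a susceptibility gene for type 2 diabetes.

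Insulin is stored in dense-core granules and released when calcium enters the β cell. Fusion is carried out by SNARE proteins, of which VAMP2 sits on the granule and syntaxin-1A and SNAP-25 sit on the plasma membrane, where they zip into a complex that pulls the membranes together. Munc13 and RIM proteins prepare the granule for this step, the small GTPases RAB3A and RAB27A recruit the docking factors, and synaptotagmins couple fusion to calcium. The same set of proteins releases transmitter at synapses, and the other endocrine cells of the islet use it too.

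The labels were checked first. Grk5 averaged 161 ± 74.9 normalized counts in knockouts and 242 ± 112 in controls (SD, n = 5 each), where a normalized count is the authors' value per gene after scaling between libraries. On the log2(value + 8) scale used throughout for fold changes, knockouts minus controls came to -0.55 ± 0.42 (SE), with an adjusted p of 0.955 in limma, so the targeted gene did not separate the groups in these whole-islet values. Esr1, the source of the estrogen receptor domain in CreER proteins, was between 1516.7 and 3176.8 in the 5 knockouts. It was 2495.0 in control 2 and 773.5 in control 5, against 0.0 to 10.5 in controls 1, 3 and 4. Knockout and control below therefore mean the libraries so labelled, and for the 9 members the fold changes without controls 2 and 5 are given beside those of all 10 libraries. Normalized totals ran from 5534386 to 7358040, and 10222 to 14632 genes were above 0. Whole reads could not be recovered for most values, so the depth is known only roughly, from each total divided by the library's commonest low value, which gave 2072840 in knockout 1 to 10950982 in knockout 3. The β cell markers summed to between 970900 and 1283000 normalized counts in knockouts and between 960700 and 1184000 in controls. All 10 β cell markers had lower fitted values in knockouts, with a median log2 fold change of -0.21, and Slc2a2, the glucose transporter gene, came to -0.49 (limma adjusted p = 0.942). Of the 8 α cell markers, 4 had higher and 4 lower fitted values in knockouts, with a median of 0.093. Among them, Gc came to 1.05 (limma adjusted p = 0.896), Ttr to 0.42 and Gcg to -0.12. The 6 endothelial markers all had higher fitted values in knockouts, with a median of 0.35, and summed to between 1933 and 2808 in knockouts and between 1553 and 1974 in controls. The 19 acinar markers, digestive enzyme genes and their regulators, summed to between 33280 and 85620 in knockouts and between 23120 and 249000 in controls, with control 4 the highest. All 17 acinar markers tested had lower fitted values in knockouts, with a median log2 fold change of -0.93. No marker passed at an adjusted p of 0.05 by limma, and the part of these cell types in the members' values was not tested beyond the acinar covariate given below. In whole-islet RNA, fewer cells of a type and less RNA per cell cannot be told apart.

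No gene of the machinery passed the test between knockout and control islets. Of the 9 members, 0 had an adjusted p under 0.05 by limma, with adjusted p-values of at least 0.942, and 0 of all 11711 genes passed (0.0%). At an unadjusted p under 0.05, 1 member, Snap25, was higher in knockouts, where 2.36% of all tested genes were, and 0 members were lower, where 2.66% of all tested genes were. In 0 of the 9 members did the groups separate without overlap, as they did in 0.862% of all tested genes. Fitted values were positive for 6 members and negative for 3, and the median log2 fold change was 0.024, beside -0.031 over all tested genes. The authors' deposited table gives the 9 members adjusted p-values of 0.757 to 0.999, and calls 19 of 13932 genes.

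Among the SNARE genes, Snap25 had the largest fitted difference and Vamp2 almost none. Snap25, on chromosome 2 from 136713453 to 136782428 (GRCm38, as are the positions below), encodes the plasma membrane SNARE that botulinum toxin A cleaves. It had 1992.9, 1060.4, 1633.5, 1127.2 and 1705.7 normalized counts in knockouts 1 to 5, and 1027.4, 1208.6, 1366.5, 600.0 and 1057.2 in controls 1 to 5. Knockouts 1, 3 and 5 lay above every control, knockouts 2 and 4 lay among them, and control 4 was the lowest of the 10 libraries. The mean was 1504 ± 399 in knockouts and 1052 ± 287 in controls (SD, n = 5 each). The fitted log2 fold change was 0.52 ± 0.24 (SE), with 95% limits of 0.012 to 1.03. In limma its p was 0.0452 before adjustment and 0.942 after it. The exact 2-sided permutation p of the log2 values was 0.0794, and no p below 0.00794 can arise from the 252 arrangements of the libraries.

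The Snap25 difference moved with the libraries used. Without control 4, which also had the highest acinar marker sum, the log2 fold change was 0.33, and with the acinar level as a covariate it was 0.28. Without controls 2 and 5 it was 0.62. Over all 22 alternatives its adjusted p by limma was at least 0.875. Its largest value, 0.89, was obtained without controls 2, 3 and 5, the 3 libraries whose values above 0 stood apart in their spacing. SNAP-25 is also abundant in nerves. The 10 neural and Schwann cell markers found in the table summed to between 338.9 and 768.3 normalized counts in knockouts and between 352.7 and 678.5 in controls. Among these, Prph, a marker of peripheral neurons, was at 0 in 4 knockouts and 2 controls, and Sox10, a marker of Schwann cells, in 4 knockouts and 4 controls. Their part in the Snap25 values was not tested.

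Vamp2, on chromosome 11 from 69088490 to 69092384, encodes the SNARE of the granule membrane. Its normalized counts were 672.1, 899.0, 563.0, 669.9 and 995.0 in knockouts 1 to 5, and 906.4, 972.3, 629.3, 585.1 and 642.7 in controls 1 to 5. The groups overlapped over nearly their whole range. The mean was 760 ± 180 in knockouts and 747 ± 178 in controls (SD, n = 5 each). Its fitted log2 difference, 0.024, had 95% limits of -0.48 to 0.53, and it was 0.099 without controls 2 and 5. Its direction turned with trimmed-mean scaling (-0.014).

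Stx1a, on chromosome 5 from 135023482 to 135051100, encodes the plasma membrane syntaxin to which both other SNAREs bind. It was the lowest member per kilobase in the mean of either group, and had 38.7, 53.4, 0.6, 19.3 and 30.2 normalized counts in knockouts 1 to 5 and 0.8, 11.6, 9.6, 25.7 and 121.1 in controls 1 to 5. Both groups held a library under 1, and control 5 lay above all others. The mean was 28.4 ± 19.9 in knockouts and 33.8 ± 49.6 in controls (SD, n = 5 each). The 95% limits of its log2 fold change, 0.19, were -1.47 and 1.85, wider than a 2-fold change in either direction. The sign depended on the method and the libraries: the authors' deposited table gives -0.27, and without controls 2 and 5 the value was 0.81.

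**Figure D1:**
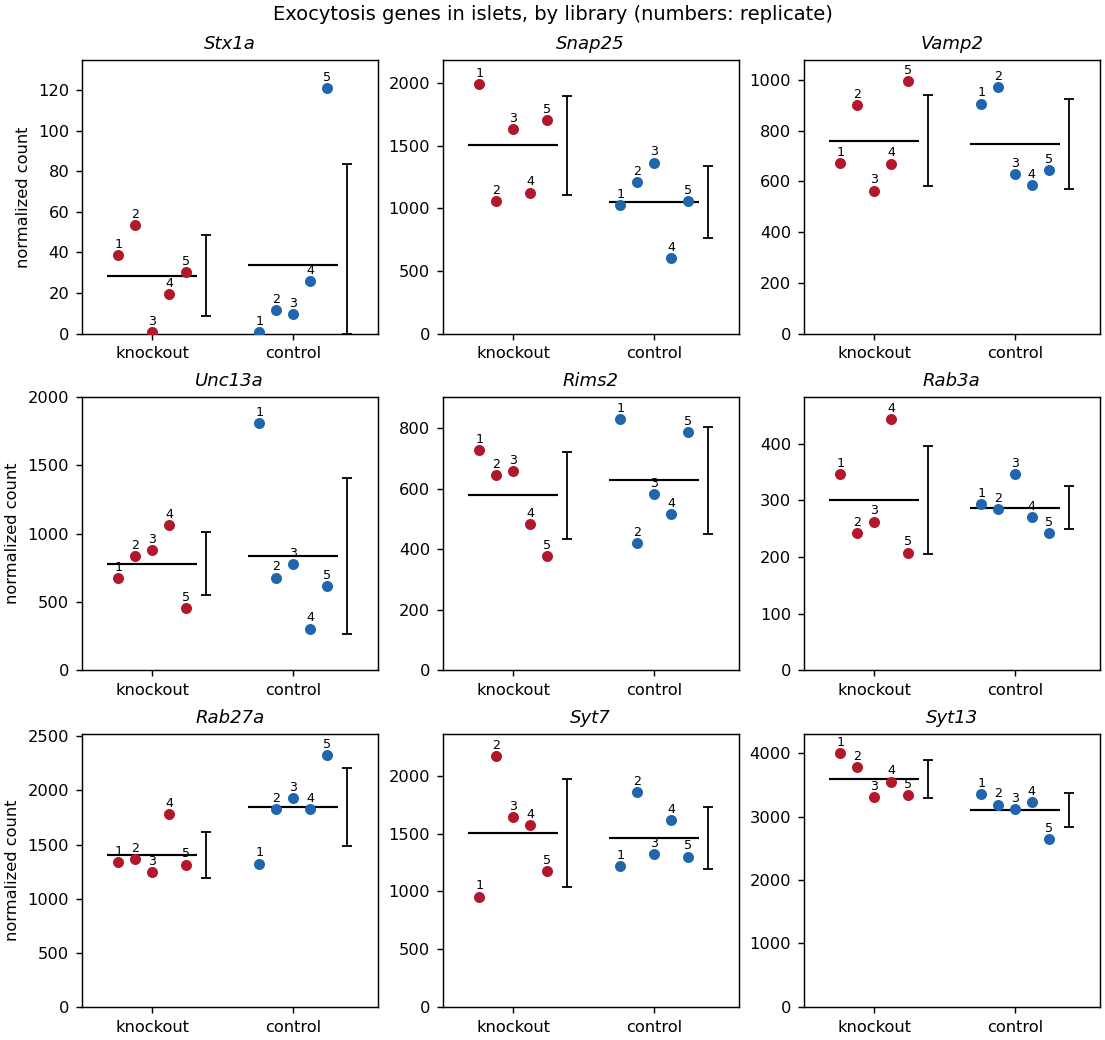
Normalized counts (vertical axes, each from 0) of the 9 genes in each library, knockout in red at left and control in blue at right, with replicate numbers, group means as lines and SD bars cut at 0. Snap25 is at 600.0 in control 4 and at 1992.9 in knockout 1, and the groups overlap in every panel.

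Of the priming and scaffold genes, neither Unc13a nor Rims2 differed beyond the spread between libraries. Unc13a, on chromosome 8 from 71624417 to 71671757, encodes Munc13-1, which opens syntaxin so that the SNARE complex can form. It had 675.1, 833.7, 881.1, 1062.6 and 455.4 normalized counts in knockouts 1 to 5, and 1812.1, 678.1, 777.2, 305.2 and 614.6 in controls 1 to 5. The controls held both the highest and the lowest library, and all 5 knockouts lay between them. The mean was 782 ± 229 in knockouts and 837 ± 573 in controls (SD, n = 5 each). The fitted log2 difference was 0.082, with 95% limits of -0.70 to 0.86. It was 0.42 without control 1, -0.22 without control 4 and -0.0092 without controls 2 and 5. In the authors' deposited table it is -0.094.

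The Unc13a start region is shown because it carries both arms of RE1, the element bound by REST, a repressor of neuronal genes in most other tissues. The arms searched were TTCAGCACC and GGACAGCGC on both strands of the RefSeq start regions (GRCm38.p6, 32851 windows of 300 bases, 250 before the start and 50 after it). The first was found in 0.371% of windows and the second in 0.405%. Both, in any order and spacing, were found in 5 windows, or 0.015%, of which that of Unc13a is 1. Of the 9 members, 4 had an entry in this set: Stx1a, Unc13a, Rab3a and Rab27a. The stretch lies at chr8:71671727-71671752, within the first exon and on the strand opposite to the gene, and capitals mark the arms.
Unc13a: TTCAGCACCgggggcgcGGACAGCGC

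The arms are 8 bases apart. A match is a description of the letters and was not tested as a binding site. Rest itself was low in the islets, at 31.9, 5.6, 30.6, 4.7 and 15.8 normalized counts in knockouts 1 to 5 and at 25.9, 42.3, 7.2, 36.8 and 28.7 in controls 1 to 5. Its log2 fold change was -0.55 ± 0.66 (SE, limma adjusted p = 0.965).

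Rims2, on chromosome 15 from 39198261 to 39684372, encodes RIM2, a scaffold that binds Rab3 on the granule and holds it near calcium channels. It had 727.5, 643.7, 657.2, 482.1 and 376.6 normalized counts in knockouts 1 to 5, and 829.3, 420.9, 582.5, 514.5 and 787.6 in controls 1 to 5. The highest library was a control and the lowest a knockout, with the remainder mixed. The mean was 577 ± 144 in knockouts and 627 ± 176 in controls (SD, n = 5 each). Its log2 fold change was -0.11 with 95% limits of -0.68 to 0.46, and was -0.16 without controls 2 and 5. It was -0.24 without control 2, and its direction turned without knockout 5 (0.031) or without control 1 (0.0006).

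Of the granule GTPase genes, all 5 knockouts lay below 4 of the 5 controls for Rab27a, and the groups overlapped throughout for Rab3a. Rab27a, on chromosome 9 from 73044854 to 73097629, encodes the GTPase that brings granules to the cell cortex through granuphilin and related effectors. It had 1334.4, 1363.6, 1244.2, 1780.5 and 1314.2 normalized counts in knockouts 1 to 5, and 1322.7, 1826.7, 1925.7, 1828.3 and 2325.5 in controls 1 to 5. All 5 knockouts lay below controls 2 to 5, and knockouts 1, 2 and 4 lay above control 1. The mean was 1407 ± 213 in knockouts and 1846 ± 357 in controls (SD, n = 5 each). The fitted log2 fold change was -0.38 ± 0.18 (SE), with 95% limits of -0.76 to 0.0082. In limma its p was 0.0546 before adjustment and 0.942 after it, and the exact 2-sided permutation p was 0.0476.

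Control 5 held the highest Rab27a value, and controls 2, 3 and 4 were also above every knockout. Of these, controls 2 and 5 had high Esr1, and controls 3 and 4 did not. Without controls 2 and 5 the log2 fold change was -0.26, and without controls 2, 3 and 5 it was -0.16. Over all 22 alternatives its adjusted p by limma was at least 0.86. With single libraries left out it ran from -0.49, without control 1, to -0.29, without control 5. The annotation places another gene, Gm27186, on the same strand over 149 exon bases of Rab27a, so reads there could be counted for either. Rab3a, on chromosome 8 from 70754679 to 70758677, encodes the GTPase that RIM proteins bind. It had 347.0, 242.6, 262.6, 443.8 and 207.9 normalized counts in knockouts 1 to 5, and 293.8, 284.0, 346.1, 270.0 and 242.9 in controls 1 to 5. The knockouts spanned a wider range than the controls, on both sides. The mean was 301 ± 94.9 in knockouts and 287 ± 38.04 in controls (SD, n = 5 each). The log2 fold change was 0.022 with 95% limits of -0.63 to 0.68, and its direction turned without controls 2 and 5 (-0.056) and with trimmed-mean scaling (-0.015). Exon bases shared with a gene on the other strand numbered 29 for Rab3a, 495 for Unc13a and 384 for Syt7, and whether counting used strand is not stated.

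Of the synaptotagmin genes, Syt13 varied least of all members and Syt7 had the same fitted level in both groups. Syt13, on chromosome 2 from 92915098 to 92956058, encodes an atypical synaptotagmin that lacks the calcium-binding residues of the family. It had 3997.0, 3779.2, 3301.7, 3552.4 and 3335.3 normalized counts in knockouts 1 to 5, and 3349.8, 3188.4, 3114.0, 3232.3 and 2639.8 in controls 1 to 5. Knockouts 1, 2 and 4 lay above every control, knockouts 3 and 5 lay just below control 1, and control 5 was the lowest library. The mean was 3593 ± 296 in knockouts and 3105 ± 274 in controls (SD, n = 5 each). The fitted log2 fold change was 0.21 ± 0.13 (SE), with 95% limits of -0.060 to 0.48. In limma its p was 0.120 before adjustment and 0.942 after it. The exact 2-sided permutation p was 0.0238, while without controls 2 and 5 the log2 fold change was 0.15. The within-group SD of Syt13 was 0.126 on the log2(value + 8) scale, beside a median of 0.835 over all tested genes, and 0.205% of tested genes had a smaller SD.

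Syt7, on chromosome 19 from 10389090 to 10453180, encodes a high-affinity calcium sensor of granule fusion. It had 954.5, 2170.8, 1643.8, 1572.3 and 1172.8 normalized counts in knockouts 1 to 5, and 1221.0, 1861.1, 1320.2, 1617.9 and 1301.4 in controls 1 to 5. Knockout 2 was the highest library and knockout 1 the lowest. The mean was 1503 ± 469 in knockouts and 1464 ± 268 in controls (SD, n = 5 each). Its log2 fold change was -0.0014 with 95% limits of -0.46 to 0.46, and was 0.069 without controls 2 and 5. For 7 of the 9 members the 95% limits lay within a 2-fold change in either direction. Snap25 and Stx1a were the exceptions.

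**Figure D2:**
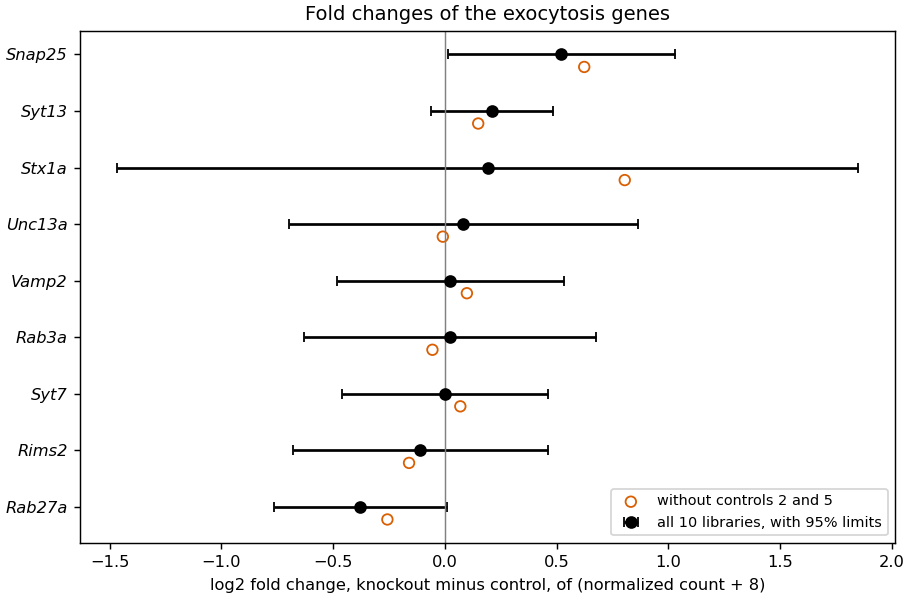
Log2 fold change, knockout minus control, of the 9 genes (horizontal axis, scale of normalized count + 8), as filled points with 95% limits for all 10 libraries and as open points without controls 2 and 5. The limits of Snap25 begin at 0.012, those of Rab27a end at 0.0082, and Stx1a has the widest limits, -1.47 to 1.85.

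Levels were then compared between genes, per kilobase of annotated exon, over all 10 libraries. Syt13 was the highest, at 891 ± 98.9 normalized counts per kilobase (SD, n = 10), followed by Rab27a at 419 ± 93.1. Syt7, Vamp2 and Snap25 lay close together at 198 ± 48.2, 198 ± 44.3 and 188 ± 59.6. Rab3a followed at 132 ± 30.8, Unc13a at 64.1 ± 32.7, Rims2 at 58.0 ± 14.8 and Stx1a at 11.7 ± 13.4 (SD, n = 10 each). Of the 8 neighbouring pairs in this order, 4 differed within libraries by an exact 2-sided sign-flip permutation test with Benjamini-Hochberg adjustment. Syt13 over Rab27a, Rab27a over Syt7 and Rims2 over Stx1a each held in 10 of 10 libraries (adjusted p = 0.00521 by the exact test), and Rab3a over Unc13a in 9 of 10 (adjusted p = 0.00781 by the exact test).

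By exon length, the other 4 neighbours did not differ beyond their spread. Snap25 was above Rab3a in 8 of 10 libraries (adjusted p = 0.050 by the exact test, not under the threshold), Vamp2 above Snap25 in 7, and Syt7 above Vamp2 and Unc13a above Rims2 in 6 each. Snap25 ranked the third in knockouts, at 221 ± 58.7 normalized counts per kilobase, and the fifth in controls, at 155 ± 42.2 (SD, n = 5 each). Lengths of the longest transcript in place of all annotated exons kept 6 of the 8 pairs in the same order. Syt7 then lay below Vamp2 and Snap25, and Unc13a below Rims2. By these lengths Rims2 was above Unc13a in 8 of 10 libraries (adjusted p = 0.0156 by the exact test). The order of Unc13a and Rims2 therefore depends on the length used.

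**Figure D3:**
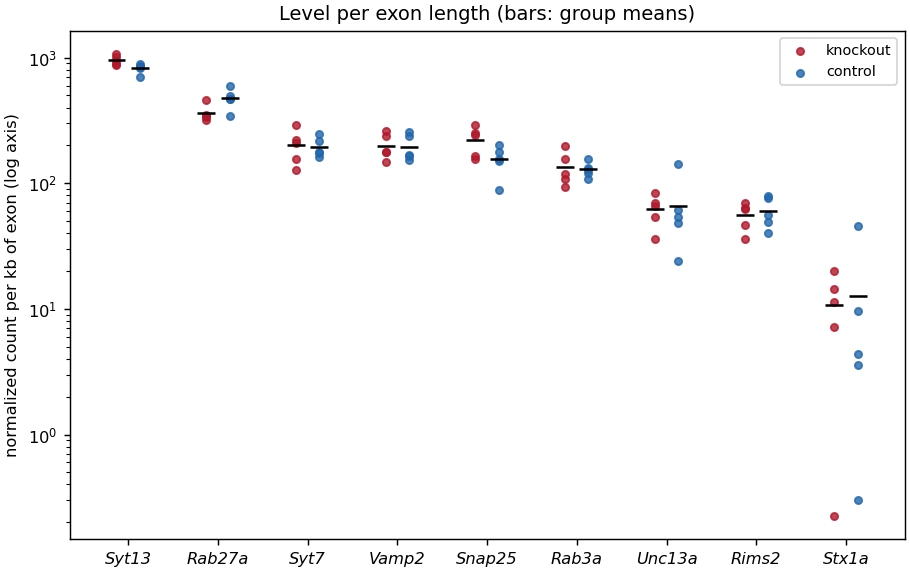
Normalized count per kilobase of exon (vertical log axis) of the 9 genes in each library, knockout in red left of control in blue, with group means as bars, ordered by the mean of all libraries. Syt13 lies at the top with 891 and Stx1a at the bottom with 11.7, where single libraries fall under 1.

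The sequences just before the start are shown for Rab27a and Stx1a, the highest and the lowest of the 4 members with a RefSeq entry. Each is the 100 bases upstream of the start in GRCm38.p6 on the gene's plus strand, at chr9:73044710-73044809 for Rab27a and at chr5:135023382-135023481 for Stx1a. Capitals mark the GC box, GGGCGG or its complement on the other strand, a letter match found in this window in 24.7% of all 32851 entries.
Rab27a: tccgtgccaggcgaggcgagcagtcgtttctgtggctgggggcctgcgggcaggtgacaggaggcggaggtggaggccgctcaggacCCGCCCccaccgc
Stx1a: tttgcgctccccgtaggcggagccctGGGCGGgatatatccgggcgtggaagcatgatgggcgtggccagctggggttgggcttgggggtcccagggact

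Each of these windows holds 1 GC box, as does that of Rab3a, and the Unc13a window holds 2.

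Within their gene families, 4 of the 9 members were the highest per kilobase of the genes compared. Rab27a made up 99.3% ± 0.84 of the Rab27 level in knockouts and 99.4% ± 0.36 in controls (SD, n = 5 each), with Rab27b at the remainder. Vamp2 held 46.1% ± 10.5 of the summed level of 5 VAMP genes in knockouts and 44.7% ± 8.8 in controls, above Vamp4 in 10 of 10 libraries. Vamp7, at 275 ± 48.6 normalized counts in knockouts and 263 ± 99.1 in controls, had no matched gene length and is not in that sum. Snap25 held 45.0% ± 7.1 of the SNAP level in knockouts and 35.7% ± 10.3 in controls, above Snap47 in 8 of 10 libraries.

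Syt13 held 58.4% ± 4.2 of the level of 14 synaptotagmin genes in knockouts and 53.3% ± 2.4 in controls (SD, n = 5 each). Syt4 came next, and Syt7 was the third with 12.1% ± 3.1 in knockouts and 12.7% ± 2.5 in controls. Syt1, the sensor of fast synaptic release, was at 6.69 ± 4.79 normalized counts per kilobase in knockouts and 7.75 ± 6.88 in controls. Syt9, another calcium sensor reported in β cells, was at 13.03 ± 4.94 in knockouts and 28.2 ± 23.3 in controls.

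Rab3a, Unc13a and Rims2 each ranked the second in their family. Rab3d, which also coats the zymogen granules of acinar cells, was at 263 ± 58.4 normalized counts per kilobase in knockouts and 219 ± 94.1 in controls, above Rab3a in 9 of 10 libraries. Baiap3, a Munc13-like gene, was above Unc13a in 9 of 10 libraries, and Unc13a above Unc13b in 10 of 10. Rims3, which lacks most of the domains of RIM2, was above Rims2 in 8 of 10 libraries, while Rims1 was at 0.57 ± 0.53 in knockouts and 0.42 ± 0.68 in controls.

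Stx1a ranked last of the 4 syntaxin genes compared over all libraries, below Stx2 in the knockout mean and above it in the control mean, with 9.0% ± 6.2 of their summed level in knockouts and 11.8% ± 19.1 in controls (SD, n = 5 each). Stx4a, another plasma membrane syntaxin of the β cell, was at 47.7 ± 17.3 normalized counts per kilobase in knockouts and 52.2 ± 30.8 in controls. Stx3, a syntaxin of granule membranes, was at 34.3 ± 9.4 in knockouts and 46.8 ± 7.7 in controls.

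**Figure D4:**
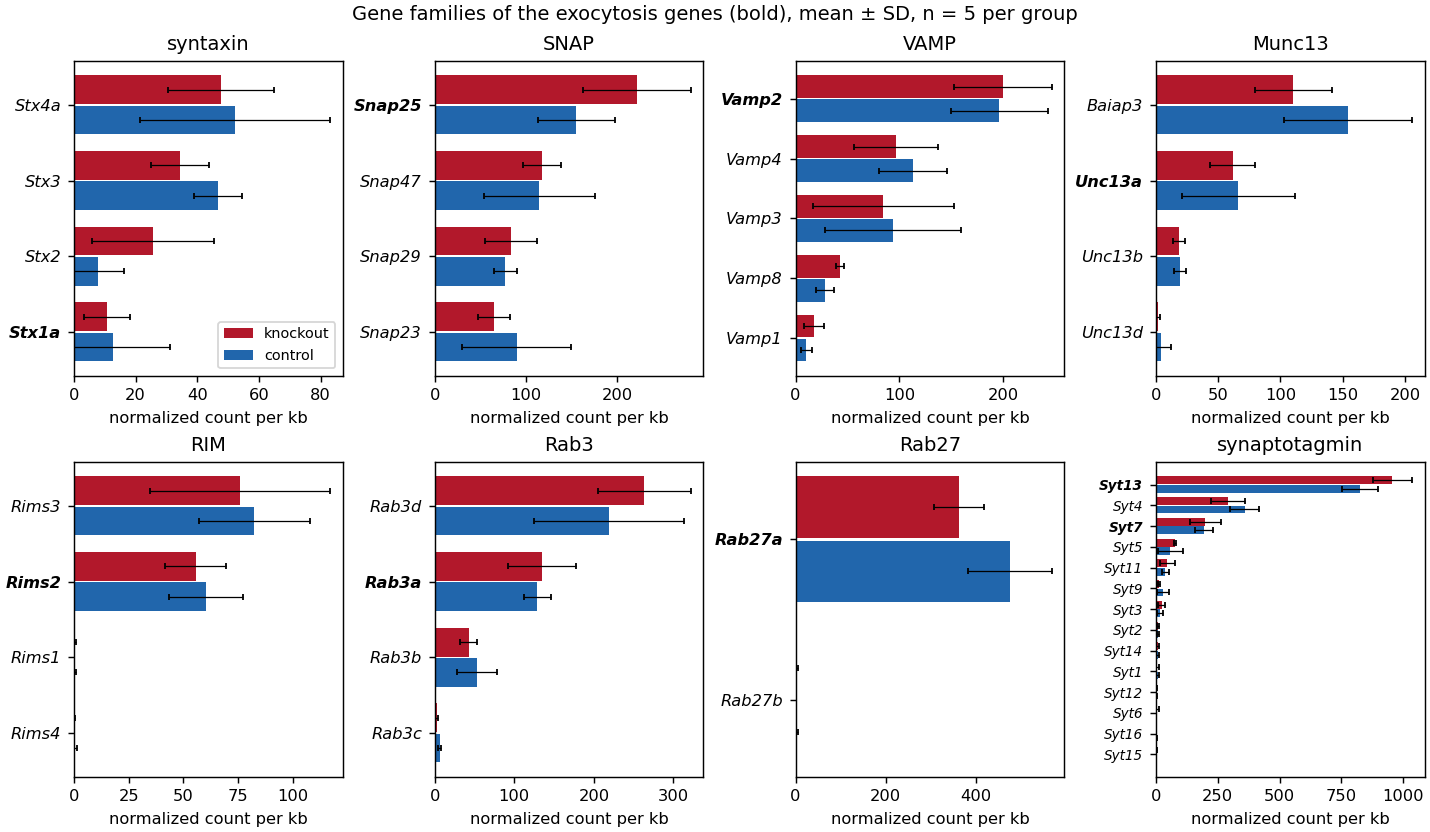
Mean normalized count per kilobase of exon (horizontal axes, from 0) of each gene in the 8 families that hold the members, in bold, with knockout in red above control in blue and SD bars (n = 5) cut at 0. Rab27a takes nearly all of its family, and Stx1a lies under Stx4a and Stx3 in both groups.

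Further genes of granule release did not pass either. Of 99 listed genes outside the members, 94 were in the table and 80 were tested. By limma 0 of them passed at an adjusted 0.05, 42 had positive and 38 negative values, and the median log2 fold change was 0.0078. At an unadjusted p under 0.05 there were 3 (3.75% of the 80, beside 5.01% of all tested genes). These were Stx2 at 1.52 ± 0.72 (SE), Rab3c at -1.46 ± 0.66 and Kif3a, a kinesin gene, at -0.95 ± 0.45. Stx2 was between 28.5 and 238.1 normalized counts in knockouts and between 9.2 and 104.9 in controls. Rab3c was between 3.5 and 69.9 in knockouts and between 56.8 and 112.1 in controls.

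Of 22 SNARE and SM genes tested, 12 had positive and 10 negative values, with a median of 0.051. Nsf, which encodes the ATPase that takes SNARE complexes apart, averaged 584 ± 206 normalized counts in knockouts and 400 ± 54.6 in controls (SD, n = 5 each). Vamp8, a SNARE gene of endosomes and of acinar zymogen granules, was the single gene of the 80 whose groups did not overlap (1.25%, beside 0.862% of all tested genes). It was between 93.4 and 114.4 in knockouts and between 36.0 and 87.7 in controls, with a fitted difference of 0.57 ± 0.49 on the log2 scale (SE, limma adjusted p = 0.955). Snap23 had a log2 fold change of -0.28, Vamp3 -0.35, Stx3 -0.46 and Stx4a 0.061.

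Of 12 priming, docking and active zone genes tested, 7 had positive and 5 negative values, with a median of 0.13. Complexins clamp the SNARE complex before calcium arrives, and Cplx2 was at 2669 ± 288 normalized counts in knockouts and 2430 ± 372 in controls (SD, n = 5 each). Cplx1 and Doc2b, a calcium sensor gene, did not pass the filter on low values and were not tested. Cplx1 was listed at 0 in 4 knockouts and 2 controls. Doc2b was listed at 0 in 5 knockouts and 1 control. Its control mean was 20.6 ± 35.1 (SD, n = 5), with 82.5 in the highest control. Cadps, which primes dense-core granules, was at 827 ± 116 in knockouts and 882 ± 253 in controls, and Baiap3 and Cadps2 had log2 fold changes of -0.45 and 0.66.

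Of 17 genes of the Rab3 and Rab27 group tested, 7 had positive and 10 negative values, with a median of -0.17. Sytl4, which encodes granuphilin, was at 1210 ± 351 normalized counts in knockouts and 1358 ± 426 in controls (SD, n = 5 each). Rph3al, which encodes the Rab effector Noc2, was at 495 ± 154 in knockouts and 644 ± 99.8 in controls, and differed by -0.41 ± 0.26 on the log2 scale (SE). Sytl5 was at 656 ± 169 in knockouts and 471 ± 99.3 in controls, a log2 difference of 0.46 ± 0.26 (SE, limma adjusted p = 0.942). Rab3b, Rab3d and Rab27b had log2 fold changes of -0.23, 0.34 and -0.60.

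Of 8 other synaptotagmin genes tested, 4 had positive and 4 negative values, with a median of 0.045. Syt4 was at 1139 ± 267 normalized counts in knockouts and 1397 ± 226 in controls (SD, n = 5 each), and Syt5, Syt9, Syt11 and Syt1 had log2 fold changes of 0.65, -0.83, 0.18 and -0.23. The 9 exocyst genes, which tether vesicles at the membrane, had 5 positive and 4 negative values with a median of 0.0045, and Exoc8 and Exoc6 were at 0.58 and 0.31. The 12 granule transport genes had 7 positive and 5 negative values with a median of 0.0078, and Kif1b was at 0.24.

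No pair of members passed a test of correlation across the 10 libraries, which are too few to show that relations were absent. Of their 36 pairs, 17 had a Pearson r above 0 and 19 below, on the log2(value + 8) scale, with a median of -0.017. By a 2-sided permutation test, 0 pairs passed after Benjamini-Hochberg adjustment over the 36, by Pearson or Spearman, and 1 had an unadjusted p under 0.05. That pair was Rab27a and Syt13, with r = -0.71 (permutation p = 0.0179, adjusted p = 0.645) and rho = -0.61 (permutation p = 0.0679, adjusted p = 0.910). Its r was -0.61 without the 2 libraries farthest from the median, -0.48 with the group means taken out, and -0.18 in the 7 libraries without controls 2, 3 and 5. In those 7 libraries the unadjusted permutation p of r was 0.738, and so few libraries cannot show whether the relation was absent. The next pairs were Stx1a and Unc13a, at r = -0.50 and rho = -0.56, and Unc13a and Rims2, at r = 0.49 and rho = 0.33 (permutation adjusted p = 0.993 for each r and 0.910 for each rho).

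The 9 members were averaged after standardising each over the 10 libraries, and 6818 genes with a mean of at least 100 normalized counts were ranked by their Pearson r with this average. The most alike were Fancc (r = 0.919), Paip2b (0.910), Sgsm3 (0.877), Nup214 (0.864) and Ank2 (0.863). These values are the top of a ranking over 10 libraries that differed in rough depth, and are given without a test. The average was highest in knockout 2 (0.37) and lowest in control 4 (-0.52).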

How the data were processed

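Islet RNA was measured in 5 knockout and 5 control libraries. Per the labels' protocols, it was depleted of ribosomal RNA and made into libraries with a stranded kit. STAR (2.4.0.1), HTSeq and DESeq2 are listed, with no role, in the submitters' processing notes. Neither the build nor strand-aware counting is given in the sources used here. Values were deposited as normalized counts, a signal unit, per the file headers. Between 25.0% and 37.0% of a library's values above 0 were whole multiples of its commonest low value (tolerance 0.01), so no count model was used. In controls 2, 3 and 5, 10.2% to 11.9% lay midway between multiples, against 1.20% to 1.44% elsewhere. The authors' deposited log2 fold changes, p-values and test scores were used only where named. The 1 row without a gene name, 0.00774% to 0.0251% of a library, was left out.

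Genes with at least 10 normalized counts in at least 5 libraries were compared as log2(value + 8), knockout minus control, with limma 3.58.1 in R 4.3.3 (trend, robust, Benjamini-Hochberg at 0.05 over all genes). This scale understates changes of low genes. The labels do not say that each library is a separate animal, so each p-value reflects the spread among these libraries, which may be technical. On simulated data made from these libraries (11361 genes), 8.14% of 86 genes changed 2-fold and 18.2% of 99 changed 4-fold were recovered, and 27.3% and 64.7% among genes with means over 500. Exact permutation tests used all arrangements, and correlations used 100000 permutations. The members and lists were chosen with earlier results of these data known. The genes named outside the members are relatives and partners set by rule, the 2 smallest p-values of each list, and the most alike in pattern. Rest and the family neighbours Snap47, Vamp4 and Rims3 were added after values were seen. Some genes set by the rule are not reported here. Lengths and positions are from GENCODE M21 on GRCm38. Alternatives were scalings, filters, pseudocounts of 1 and 32, variance models, library weights, an acinar covariate and omitted libraries. Python 3.11.15, scipy 1.17.1, pandas 2.3.3 and matplotlib 3.10.9 were used.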

Additional observations from a re-analysis of the deposited data

Results flagged for a closer look

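Stx1a in control 5, at 121.1 normalized counts, stood far from the other controls, which were between 0.8 and 25.7. Rab27a in knockout 4, at 1780.5, stood far from the other knockouts, which were between 1244.2 and 1363.6. Of 18 groups of 5 examined for a single distant library, these 2 exceeded Dixon's critical value of 0.71, and chance flags about 1 in 20 such groups.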

How the results depend on the processing

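Over 22 alternatives, 0 members and 0 other exocytosis genes passed by limma. Among all genes, 1 passed without a variance trend, 1 without controls 2 and 5, 3 without controls 2, 3 and 5, and 0 to 1 with single libraries left out. Snap25, Syt13 and Rab27a kept their directions. The median of the members stayed within -0.04 to 0.11. Other directions turned, and the cause was not tested. Syt7 was 0.020 with total counts, 0.11 with library weights, 0.014 with the acinar covariate, 0.069 without controls 2 and 5, and 0.039 without controls 2, 3 and 5. Rab3a was -0.015 with trimmed-mean scaling, -0.11 with weights, -0.041 with the covariate and -0.056 without controls 2 and 5. Vamp2 was -0.014 with trimmed means and -0.21 with the covariate, Unc13a -0.11 with the covariate and -0.0092 without controls 2 and 5, Rims2 0.012 with the covariate, and Stx1a -0.070 with weights. With single libraries left out, Stx1a ran from -0.21 to 0.76, Vamp2 from -0.080 to 0.13, Unc13a from -0.22 to 0.42, Rab3a from -0.13 to 0.14, Syt7 from -0.15 to 0.15 and Rims2 from -0.24 to 0.031. A minimum of 50 normalized counts left Stx1a untested. Low values limit Stx1a most. No paired analysis was possible because the labels give no replicate numbers.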
